A study of Mus musculus with 29 samples.

Results

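Embryonic cortex with both Myt1l alleles mutated was compared with wild-type cortex by ATAC-seq, an assay in which a transposase cuts open DNA so that read density reports accessibility. The comparison used the 6 libraries titled as homozygous mutant (Hom) and the 6 titled as wild type (WT), 12 of the 29 libraries of the series, and every region of the E14.5 table with a mean level of 1 CPM or more, that is reads per region scaled to a common library total, which kept 138760 of 205908 regions. Each Hom library carries 2 mutant alleles of Myt1l in a knockout mouse line and each WT library carries none. Both groups hold 4 libraries from litter 1 and 2 from litter 2, all from E14.5 cortex. The 5 Het libraries, with 1 mutant allele, entered the fit to help estimate the spread and are quoted only beside Hom. Strain, the nature of the mutation and embryo sex are not stated in the labels. Nothing says that each library is a separate embryo, and p-values therefore reflect only how much these libraries scatter.

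Myt1l encodes a zinc finger transcription factor that appears as progenitors leave the cell cycle and become neurons. It is best known for repressing genes of other cell fates and for its use, with other factors, in converting fibroblasts into neurons. Mid-gestation cortex holds dividing progenitors beside newly born neurons. In such bulk tissue, fewer cells with an open region and a lower opening in each cell cannot be told apart. The deposited table numbers its regions and does not pair them with genes or positions, so Myt1l itself, its targets and markers of the labelled tissue could not be checked, and no sequence is shown.

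Values were log2 CPM after the authors' RUVr adjustment, which removes variation not explained by the groups, and the original depth of the libraries is unknown. The 12 libraries summed to 1002450 to 1045790 CPM over all regions. Between libraries of different genotype the correlation of log2 values had a median of 0.967 over 36 pairs, against 0.967 over 15 Hom pairs and 0.969 over 15 WT pairs. The pair with the highest correlation, 0.987, joined a Hom with a WT library. On each of the first 4 principal components of the 12 libraries, which held 13.4%, 12.1%, 11.4% and 11.1% of the variance, Hom and WT libraries overlapped.

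No region passed the threshold between Hom and WT. With limma over all 17 embryonic libraries, 0 of 138760 regions (0%) had a Benjamini-Hochberg adjusted p under 0.05, and the smallest adjusted p was 0.121. At an unadjusted limma p under 0.05 there were 12926 regions (9.32%), of which 5929 (4.27%) were higher in Hom and 6997 (5.04%) lower. The balance of directions turned with some other settings. It was 6364 higher and 6143 lower after quantile normalization, and 6479 and 6207 after removal of a trend against level in each library. Both of these steps bring the median difference at each level close to 0 by construction, so a near balance after them is built in. With no filter on level the counts were 9628 higher and 8912 lower. With a minimum of 4 CPM, where fewer and only more accessible regions were tested, the balance leaned further to lower, at 1958 higher and 4011 lower. Lower regions stayed more numerous whichever single library was left out. The table holds 3 directions among the 17 libraries with almost no variation left, and a fit with these as covariates also called 0 regions. In that fit 7968 regions (5.74%) had an unadjusted p under 0.05.

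Differences between the genotypes were small at nearly all regions. The quartiles of the Hom minus WT differences were -0.10 and 0.10 log2, and the 1st and 99th percentiles were -0.43 and 0.47 log2. Hom was higher by over 0.5 log2 at 1016 regions and lower by over 0.5 log2 at 632, together 1.19% of those tested. A difference of more than 1 log2 upwards was seen at 11 regions and downwards at 2. The 95% confidence interval of the difference had a median half-width of 0.27 log2. It lay wholly within 0.5 log2 of no difference at 100753 regions (72.6%) and within 1 log2 at 137910 (99.4%). With the near-empty directions as covariates these shares were 64.99% and 99.1%. At the remaining regions a change of that size was not excluded by the interval.

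The regions with the smallest p in each direction differed by 0.32 to 0.68 log2 in size, with no overlap between Hom and WT libraries. The region all_e14_peak_63069 had the smallest p of the comparison. Its WT libraries measured 6.54, 7.12, 7.40, 6.97, 6.31 and 6.67 CPM in replicates 10, 13, 25, 43, 46 and 57. Its Hom libraries measured 4.51, 4.56, 5.21, 4.71, 5.22 and 5.06 CPM in replicates 6, 20, 40, 54, 61 and 65. Every Hom library lay below every WT library. The means were 6.83 ± 0.4005 CPM (SD, n = 6) in WT and 4.88 ± 0.324 CPM (n = 6) in Hom, a difference of -0.49 log2 (SE 0.08, 95% interval -0.66 to -0.32, limma adjusted p = 0.121). The Het mean lay between the groups at 6.17 ± 0.410 CPM (n = 5), -0.15 log2 from the same WT libraries (SE 0.09, limma adjusted p = 0.420).

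The other region lower in Hom, all_e14_peak_136199, was about as low with 1 mutant allele as with 2. WT libraries measured 12.9, 12.8, 13.99, 13.6, 12.2 and 14.1 CPM in the replicate order given above. Hom libraries measured 10.1, 11.2, 10.7, 9.53, 10.5 and 10.4 CPM. The groups did not overlap, and Hom differed from WT by -0.35 log2 (SE 0.07, limma adjusted p = 0.157). Het libraries measured 11.02, 10.5, 10.2, 9.88 and 9.22 CPM in replicates 27, 31, 34, 49 and 64. This region fell in Het by 0.38 log2 (SE 0.07, limma adjusted p = 0.00501), so that the same region passed in Het and missed in Hom at nearly the same size, and the Hom and Het libraries were not tested against each other here. The adjusted p depends on how many other regions reach a low p in each comparison, and both comparisons share the WT libraries.

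Of the regions higher in Hom, all_e14_peak_4583 had the smallest p. WT libraries measured 1.77, 1.80, 1.72, 2.41, 2.21 and 2.11 CPM and Hom libraries 3.31, 4.003, 3.31, 2.89, 2.94 and 2.86 CPM, in the same replicate order. All 6 Hom libraries exceeded the highest WT library. The difference was 0.68 log2 (SE 0.14, 95% interval 0.41 to 0.96, limma adjusted p = 0.157). Het libraries averaged 2.51 ± 0.308 CPM (SD, n = 5), which is 0.33 log2 above WT (SE 0.14, limma adjusted p = 0.234).

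The region all_e14_peak_37463 was more accessible overall and tighter. WT libraries measured 9.68, 9.07, 9.78, 8.62, 9.22 and 8.82 CPM and Hom libraries 11.3, 11.5, 11.1, 11.8, 12.1 and 11.2 CPM. Again no Hom library overlapped WT, with a difference of 0.32 log2 (SE 0.06, limma adjusted p = 0.157). Het libraries averaged 10.4 ± 0.356 CPM (SD, n = 5), 0.18 log2 above WT (SE 0.07, limma adjusted p = 0.159). None of these 4 regions passed in Hom under any setting tried, leaving out single libraries included.

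**Figure D1:**
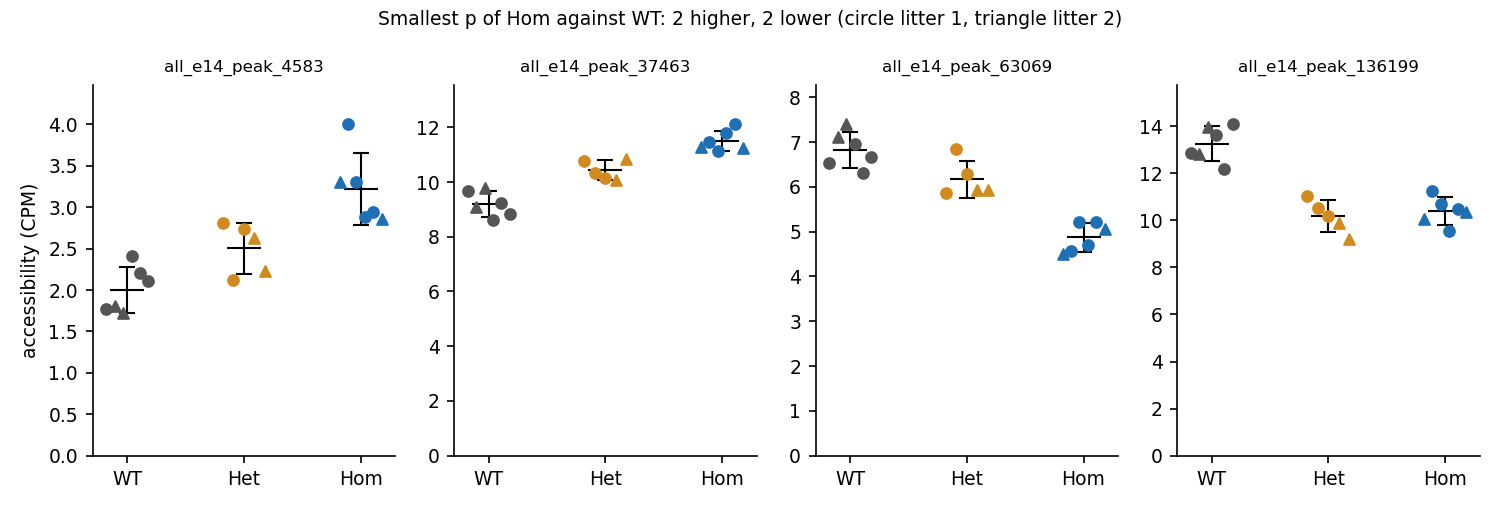
Accessibility in CPM (vertical axes from 0) at the 4 named regions in each WT, Het and Hom library; bars give the mean ± SD, circles litter 1 and triangles litter 2. Hom libraries lie apart from WT at each region, and Het means lie between them except at all_e14_peak_136199.

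Regions of this kind, where the 6 Hom and 6 WT libraries did not overlap, numbered 785, or 0.566% of those tested. They comprised 335 higher in Hom (0.241%) and 450 lower (0.324%). Quantile normalization gave 414 higher and 403 lower, and removal of the level trend 421 and 415. Both steps bring the median difference at each level close to 0 by construction. This balance is therefore built in and cannot decide whether the excess of lower regions comes from the scaling. Those higher in Hom were modest in level, with a median of 2.73 CPM against 3.08 CPM over all tested regions, and differed by a median of 0.39 log2. Those lower in Hom were more accessible, with a median of 7.10 CPM, and differed by a median of -0.26 log2. Against the same WT libraries the Het medians at these 2 sets were 0.23 and -0.18 log2. The choice of sets fixes the direction in Hom, and the shared WT libraries tie Het to it.

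Accessibility level divided the direction of the Hom differences. Regions were split into 10 equal groups of 13876 by their mean CPM. In the highest group, above 16.6 CPM, 1395 regions (10.1%) were lower in Hom at an unadjusted limma p under 0.05 and 237 (1.71%) were higher. In the lowest group, 1.00 to 1.203 CPM, 457 (3.29%) were lower and 695 (5.01%) higher. The median difference went from 0.03 log2 in the lowest group to -0.03 log2 in the highest, small beside the spread of differences within a group, whose SD was 0.25 log2 at the bottom and 0.06 log2 at the top. Precision moved the same way: the median half-width of the 95% interval went from 0.44 log2 in the lowest group to 0.11 log2 in the highest.

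The direction of the differences by level was also counted under other scalings of the libraries. Removing each library's trend against level, or quantile normalization, brings the median difference in each group close to 0 by construction, so a balance of directions after it is built in. With the trend removed, the highest group held 802 lower (5.78%) and 828 higher (5.97%) regions at an unadjusted p under 0.05. Quantile normalization gave 793 lower and 820 higher. Per library, the median deviation from WT in the highest group ran from -0.07 to 0.02 log2 in Hom and from -0.07 to 0.04 log2 in WT, so single libraries overlapped. In litter 1 the median Hom difference there was -0.04 log2 and in litter 2 it was -0.0048 log2. Among the 1388 most accessible regions (the top 1%, 55.0 CPM and above), the differences ran from -0.21 to 0.16 log2, with 86 lower (6.20%) and 25 higher (1.80%) at an unadjusted p under 0.05, against 5.04% and 4.27% over all tested regions.

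**Figure D2:**
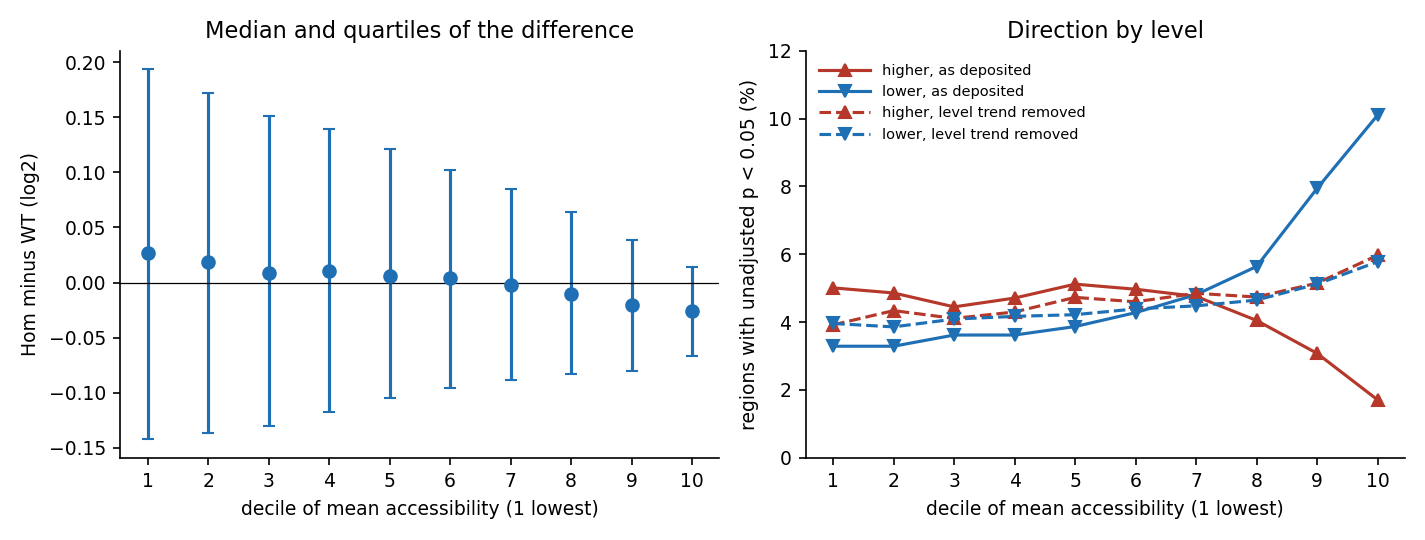
Left, median (point) and quartiles (bars) of the Hom minus WT difference in log2 by decile of mean accessibility; right, percent of regions with an unadjusted p under 0.05 in each direction, as deposited (solid) and after removal of the level trend of each library (dashed). The excess of lower regions in the top decile (10.1% against 1.71%) gives way to 5.78% against 5.97% once the trend is removed, a step that centres each decile by construction.

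The lowest of these differences was at all_e14_peak_90820, which was chosen after its values were seen. When each of the 12 libraries was left out in turn, this region alone was called, and only without Hom replicate 54. Hom replicate 54 measured 67.6 CPM, within the WT range of 65.2 to 72.4 CPM, while the other 5 Hom libraries lay between 55.3 and 60.2 CPM. Over all libraries the difference was -0.21 log2 (SE 0.04, limma adjusted p = 0.157). Without Hom replicate 54 it was called (limma adjusted p = 0.0464), as 1 of 138760 regions (0.000721%).

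Whole-library measures were compared between the 6 Hom and 6 WT libraries by two-sided exact permutation tests, adjusted over a family of 4. The slope that relates a library's deviation to the level of its regions averaged 0.00115 ± 0.00509 (SD, n = 6) in Hom and 0.0117 ± 0.00673 (n = 6) in WT, in log2 per log2 (exact permutation p = 0.0173, adjusted 0.0693). Het replicates 27, 31, 34, 49 and 64 had slopes of -0.0132, -0.0109, -0.0231, -0.00965 and -0.0200. These lay below every Hom library and were not tested. The share of all CPM held by the top decile of regions was 47.6% ± 0.429 in Hom and 47.9% ± 0.534 in WT (n = 6 each, exact permutation p = 0.331, adjusted 0.442). A difference in scatter was not detected: the root mean square distance from the other 5 libraries of the group was 0.289 ± 0.0262 log2 in Hom and 0.285 ± 0.0325 log2 in WT (n = 6 each, exact permutation p = 0.829, adjusted 0.829). The median level was 3.11 ± 0.0185 CPM in Hom and 3.08 ± 0.0222 CPM in WT (n = 6 each, exact permutation p = 0.0606, adjusted 0.121). The slope passed the threshold without WT replicate 13 (adjusted 0.0173, exact permutation) and with no filter on level (adjusted 0.00866, exact permutation). With a minimum of 4 CPM it missed (adjusted 0.364, exact permutation), as it did with 0.5 added to CPM (adjusted 0.121, exact permutation). Litter 1 alone gave the smallest p possible there, 0.0286 (adjusted 0.114, exact permutation). Leaving out any other single library also missed, with adjusted p up to 0.147 (exact permutation).

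The litters give 2 measurements of the Hom difference that share no library. Both come from the same RUVr-adjusted values, so they are not fully separate. Across all tested regions, which are not independent replicates, the differences in litter 1 and litter 2 correlated at r = 0.09. Within the highest decile of accessibility r was 0.15 and within the lowest 0.08. Litter 2, with 2 libraries per genotype, gave a wider spread of differences (SD 0.29 log2) than litter 1 (SD 0.20 log2). In the fit with a mean per genotype and litter, 4289 regions (3.09%) were higher in Hom in litter 1 at an unadjusted limma p under 0.05. Of these, 2576 (60.1%) were also higher in litter 2, where 49.4% of all regions were higher. Of the 4918 regions (3.54%) lower in litter 1, 2997 (60.9%) were also lower in litter 2. The median difference in litter 2 was 0.07 log2 for the higher set and -0.05 log2 for the lower set. The litter 1 medians of these sets, 0.45 and -0.31 log2, were fixed by the choice on litter 1 and are no measure to compare them with.

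Each of the 4 named regions gave Hom differences of equal sign in litter 1 and litter 2. The differences in litters 1 and 2 were -0.43 and -0.60 log2 at all_e14_peak_63069 and -0.33 and -0.39 log2 at all_e14_peak_136199. They were 0.63 and 0.80 log2 at all_e14_peak_4583 and 0.36 and 0.26 log2 at all_e14_peak_37463. Because these regions were chosen on all 12 libraries, likeness between litters is built into the choice.

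**Figure D3:**
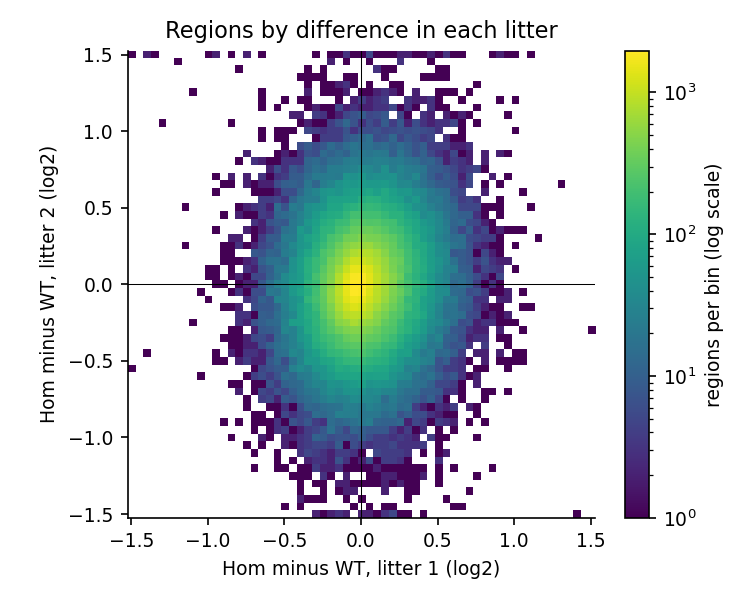
Number of regions (colour, log scale) by their Hom minus WT difference in litter 1 (horizontal, log2) and litter 2 (vertical, log2), in bins of 0.05 log2 with values beyond 1.5 drawn in the edge bins. The cloud is nearly round and taller than wide, with r = 0.09 and SDs of 0.20 log2 in litter 1 and 0.29 log2 in litter 2.

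Fitted alone, litter 1 called 0 regions (0%; 7.29% at an unadjusted limma p under 0.05) and litter 2 called 20 (0.0144%; 6.27% at an unadjusted limma p under 0.05), 17 higher and 3 lower in Hom. Of the 20, 14 carried numbers from 235712 up, where 60 of the tested regions lie, and 16 had the opposite sign in litter 1. A test of the difference between the litters called 1 region (0.000721%; 5.86% at an unadjusted limma p under 0.05), all_e14_peak_235822, named because it was the only one. In litter 1 its Hom libraries measured 1.67, 2.36, 3.45 and 0.253 CPM (replicates 20, 40, 54 and 61) and its WT libraries 12.4, 3.26, 4.36 and 4.56 CPM (replicates 10, 43, 46 and 57). In litter 2 the Hom libraries measured 17.4 and 11.8 CPM (replicates 6 and 65) and the WT libraries 0.903 and 0.506 CPM (replicates 13 and 25). The Hom difference was -1.97 log2 in litter 1 and 4.40 log2 in litter 2, a gap of 6.37 log2 (SE 0.89, limma adjusted p = 0.000568). The call was lost without the empirical Bayes trend, where 0 regions passed, 8110 (5.84%) had an unadjusted limma p under 0.05 and this region had a limma adjusted p of 0.843. The count was 2 without Hom replicate 20. Leaving out Hom replicate 6 or 65, or WT replicate 13 or 25, left 1 library in a litter 2 group, so those counts are not given. Without Hom replicate 6 or 65 or WT replicate 25 the called regions were of both directions. The near-empty directions hold 13.9% of this contrast and 64.6% of the plain difference between litters, but 0.0203% of the Hom difference.

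Of the 11 regions at which Hom was higher by over 1 log2, 8 lay in one short run of region numbers and 1 in another, and in such runs neighbouring regions varied together from library to library. The runs described here hold none of the regions lower by over 1 log2. Whether the numbers follow the genome is not stated in the labels or the table. The runs were found by their values, so no test is given. Over 1388 consecutive stretches of up to 100 tested regions, the median Hom difference exceeded 0.1 log2 in 3 stretches and was under -0.1 log2 in 1. The 3 high ones covered numbers 171262 to 171522, 171524 to 171765 and 235712 to 235850.

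The first run had sharp edges and held 139 tested regions numbered 171352 to 171716. Hom was higher at 131 of them, with a median difference of 0.39 log2. An unadjusted limma p under 0.05 was reached by 45 of the 139, against 9.32% of all tested regions. Regions in the run vary together, so this count does not stand for separate observations. The libraries did not sort fully by genotype. Relative to the mean of all 17 libraries, the median deviation was 0.39, 0.21, -0.84, 0.46, 0.60 and 0.13 log2 in Hom replicates 6, 20, 40, 54, 61 and 65. It was -0.17, -0.77, 0.40, -0.01, 0.03 and -0.85 log2 in WT replicates 10, 13, 25, 43, 46 and 57. Hom replicate 40 thus lay as low as WT replicates 13 and 57, and WT replicate 25 lay within the range of the other 5 Hom libraries. In the 139 tested regions before the run the 12 libraries lay between -0.03 and 0.07 log2, and in the 139 after it between -0.06 and 0.05 log2. The 5 Het libraries were spread in the same way, from -0.35 to 0.63 log2. The median Hom difference was 0.25 log2 without WT replicate 57 and 0.56 log2 without Hom replicate 40, the ends of the range over single libraries left out, and 0.17 log2 with 2 added to CPM. This run supplied 39 (3.84%) of the 1016 regions where Hom was higher by over 0.5 log2.

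**Figure D4:**
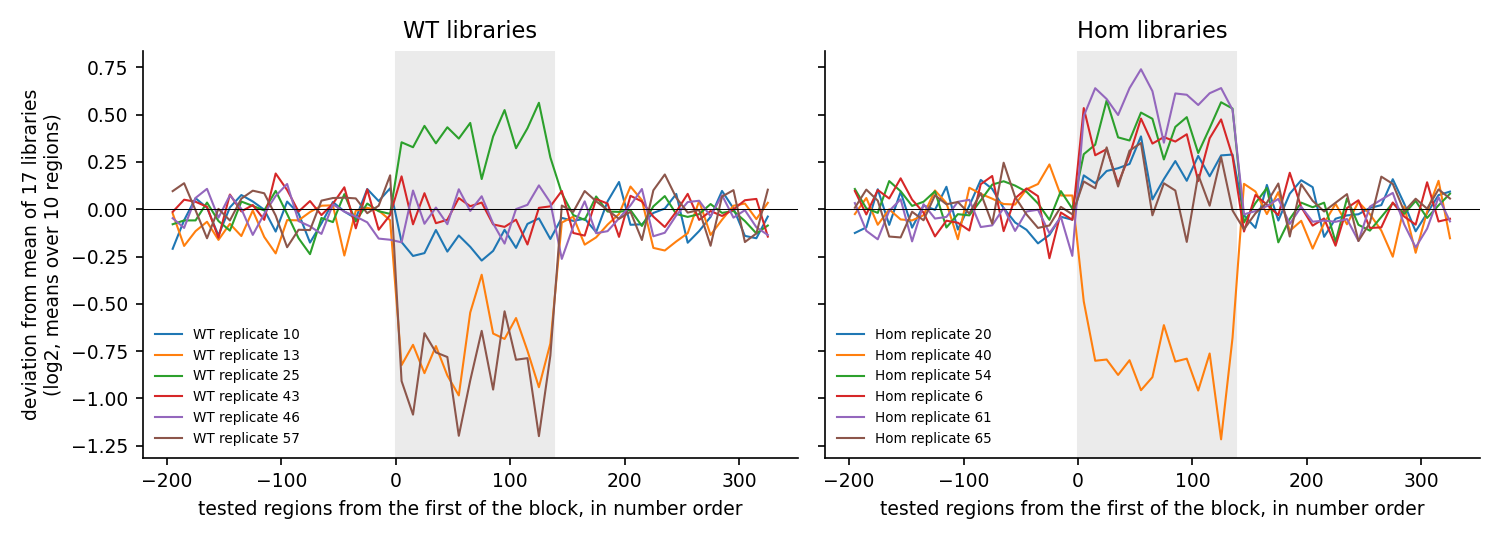
Deviation of each WT (left) and Hom (right) library from the mean of 17 libraries, in log2 as means over 10 tested regions, along the order of region numbers; the grey band marks the 139 regions numbered 171352 to 171716. Libraries separate at the edges of the band and return to 0 outside it, with WT replicates 13 and 57 and Hom replicate 40 low in it.

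The second run held 9 tested regions numbered 235788 to 235808 and gave 8 of the 11 regions (72.7%) at which Hom was higher by over 1 log2. The median level in the run was 12.6 CPM in Hom replicate 20, 6.36 CPM in Hom replicate 65 and 0.852 CPM in Hom replicate 40. The other 3 Hom libraries had a median of 0.101 CPM, the floor of the deposited values. In WT, replicate 10 measured 3.85 CPM and the other 5 libraries 0.101 to 0.201 CPM. The high libraries were thus 3 of 6 in Hom and 1 of 6 in WT. The median Hom difference was 1.51 log2, and it was 0.75 log2 without Hom replicate 20, 0.91 log2 without Hom replicate 65 and up to 2.20 log2 without another library. It was 0.88 log2 in litter 1, 2.93 log2 in litter 2 and 0.67 log2 with 2 added to CPM. Of the 9 regions, 0 had an unadjusted limma p under 0.05 (smallest 0.0570), against 9.32% of all tested regions.

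The third run, 20 tested regions numbered 231656 to 231688, was low in 3 of the 4 Hom and WT libraries that were high in the second. Its median level was 0.557 CPM in Hom replicate 20, 0.852 CPM in Hom replicate 65 and 1.01 CPM in WT replicate 10. The other Hom libraries lay at 2.86 to 5.49 CPM, with replicate 40 the lowest of them, and the other WT libraries at 2.53 to 5.14 CPM. Of the 20 regions, 1 had an unadjusted limma p under 0.05, against 9.32% of all tested regions. The median Hom difference was -0.21 log2. It came close to 0 without Hom replicate 20 (-0.0029 log2) or Hom replicate 65 (-0.0253 log2) and reached -0.54 log2 without WT replicate 10. Leaving out Hom replicate 6, 54 or 61 gave -0.49, -0.47 and -0.41 log2, and WT replicate 25 gave -0.13 log2. In litter 1 it was -0.03 log2, in litter 2 -0.72 log2, and with 2 added to CPM -0.04 log2. Without the regions of all 3 runs, a setting chosen after the data were examined, 0 regions were called and 12910 had an unadjusted limma p under 0.05.

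**Figure D5:**
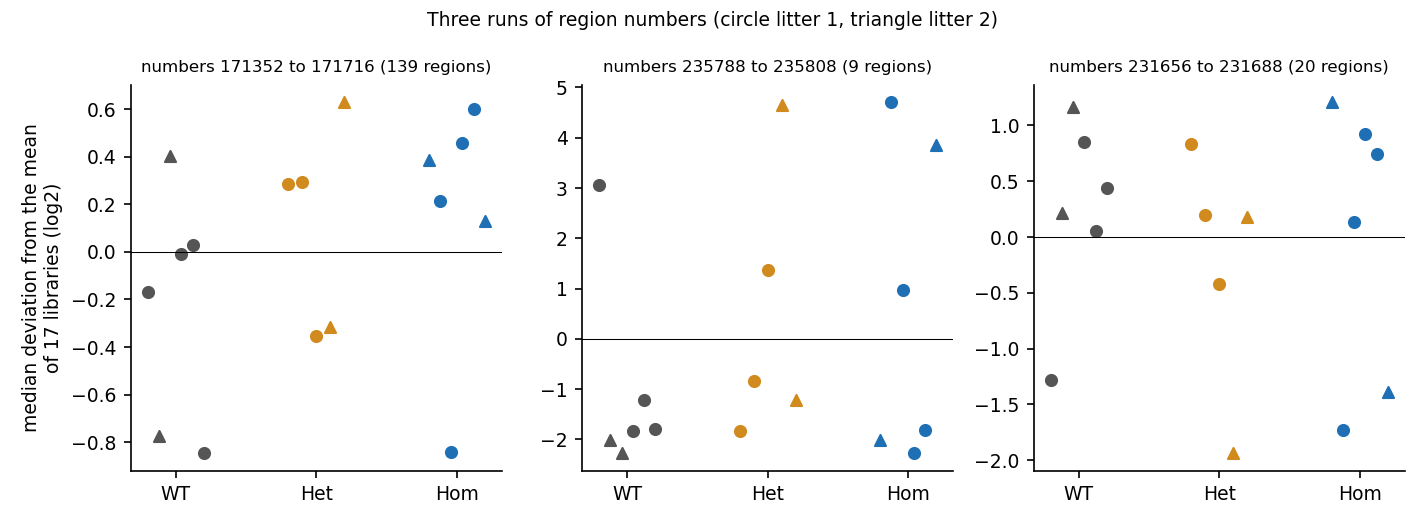
Median deviation from the mean of 17 libraries (log2, one axis per panel) for each WT, Het and Hom library in the 3 runs of region numbers; circles are litter 1 and triangles litter 2. In each panel libraries of all 3 genotypes lie both high and low.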

How the data were processed

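The authors deposited log2 CPM per numbered region after RUVr, as the table is titled. The mm10 build and the tools Trimmomatic, Bowtie2, STAR and HTSeq are named per the submitters' processing notes, without a role. How peaks were called, how many factors RUVr used and the read depth are not stated there. RUVr keeps the groups and removes variation within them, which can make p-values too small. The 3 near-empty directions of variation were therefore also fitted as covariates.

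Genotype and litter came from the library titles. Regions averaging 1 CPM or more over 17 libraries were tested on the deposited log2 values with limma 3.58.1 in R 4.3.3 (empirical Bayes trend, 1 mean per genotype, Benjamini-Hochberg over all tested regions, threshold 0.05). The fit was tested on simulated data with independent noise in each value. Those data lacked the near-empty directions and the runs of regions that vary together. The test therefore does not show whether p-values hold on the deposited values. The regions named are the 2 with the smallest p in each direction. Others were chosen after their values were seen, as the text says. Runs of region numbers were found from windows of 20 regions in which libraries deviated together, and extended to where that likeness ended. The second run is the 9 regions whose SD over libraries exceeded 2 log2. No 2 libraries held identical values. The adult libraries were not used here. The comparison and its settings were chosen with earlier results of these data known.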

Additional observations from a re-analysis of the deposited data

Results flagged for a closer look

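Within groups of 6 libraries, a library was singled out when its gap to the nearest other exceeded the 95% critical share of the group's range. Of 22 groups checked, 3 held such a library. Chance would give about 1.1 in groups not chosen by their values, but 2 of the 3 lie in runs chosen because libraries deviated in them, so that figure does not apply to them. Hom replicate 20 had a median level of 3.14 CPM, against 3.09 to 3.11 CPM in the other Hom libraries. Het replicates 31, 49 and 64 had the same median level, 3.14 CPM. Hom replicate 40 had a median deviation of -0.84 log2 in the regions numbered 171352 to 171716, against 0.13 to 0.60 log2 in the other Hom libraries. WT replicate 10 had a median deviation of 3.06 log2 in the regions numbered 235788 to 235808, against -2.27 to -1.21 log2 in the other WT libraries. The region all_e14_peak_235822 is listed because its Hom difference was itself tested between the litters and was 6.37 log2 higher in litter 2 (limma adjusted p = 0.000568). Without the empirical Bayes trend its limma adjusted p was 0.843. It is numbered just after the second of these runs.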

How the results depend on the processing

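The count of called regions stayed at 0 in 13 of 14 settings other than leaving out a library. It was 20 in litter 2 alone, and 0 to 1 when single libraries were left out. The count at an unadjusted p under 0.05 was 7968 with the near-empty directions as covariates and 5969 with a minimum of 4 CPM, where fewer regions were tested, and 10587 to 13418 without single libraries. Regions differing between litters numbered 13 with Hom and WT libraries only and 14 with the near-empty directions as covariates. They numbered 3 with 0.5 and 5 with 2 added to CPM, 2 with a minimum of 4 CPM and 0 without the empirical Bayes trend. Leaving out single litter 1 libraries gave 1 to 2, and the cause of these shifts was not tested. Regions without overlap numbered 5169 in litter 1 alone and 46585 in litter 2 alone, since fewer libraries overlap less often, 412 with a minimum of 4 CPM and 982 to 1526 without single libraries. The Hom minus WT slope was -0.0142 with no filter, -0.00878 with a minimum of 4 CPM and -0.0130 to -0.00926 without single libraries. The difference in scatter was -8.51e-05 log2 with no filter, -0.0214 log2 in litter 1 alone and -0.0157 to 0.0173 log2 without single libraries. With a minimum of 4 CPM the difference in the top-decile share was 0.0353 percentage points and that in median level -0.0761 CPM. The differences at the 4 named regions kept their direction and missed the threshold in all settings run. The test of 4 against 4 libraries cannot give an exact permutation p under 0.0286. No paired analysis was possible because the library numbers in the titles differ between the groups. With litter, which both groups share, as a covariate 0 regions were called (smallest limma adjusted p 0.219) and 11965 had an unadjusted p under 0.05. The depth of the libraries is unknown, so counting error could not be given.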
